A study of Mus musculus with 2 samples.

Results

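The genes described here encode the elastic fibre and the proteoglycans that sit beside it in connective tissue. They are elastin (Eln), the fibrillins (Fbn1, Fbn2), the fibulins (Fbln1, Fbln2, Fbln5), versican (Vcan) and the small leucine-rich proteoglycans decorin (Dcn), lumican (Lum) and biglycan (Bgn). The 10 genes were chosen with earlier results of these data known. Their probe sets were all those whose only gene symbol in the array's annotation was one of these names, whatever their signals. The rule found 25 probe sets for 9 genes, out of 18193 genes with such a probe set. No probe set carried the single symbol Fbn1, so Fbn1 was not analysed here.

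The study compared newborn ovaries with and without over-active hedgehog signalling, using RNA from whole ovaries of mice at 2 days of age. The control pool combined 8 mice of genotype Amhr2(+/+)-SmoM2, which carry the SmoM2 allele and no Cre. The mutant pool combined 8 mice of genotype Amhr2(cre/+)-SmoM2, in which Cre made from 1 Amhr2 copy switches on SmoM2, an always-active form of the hedgehog transducer Smoothened, in the gonadal somatic cells that use Amhr2. Cre, the altered Amhr2 copy and active SmoM2 differ between the pools together and cannot be told apart. Each pool was hybridised to 1 Affymetrix array, so the differences below have no replicate check and no p-value was computed.

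Elastic fibres are built when elastin is laid on a scaffold of fibrillin microfibrils, with fibulins guiding the deposition and lysyl oxidases cross-linking the product. Versican is a large proteoglycan that binds hyaluronan and swells the matrix between cells, and the small leucine-rich proteoglycans bind collagen fibrils and shape their growth. In the ovary these proteins lie mainly in the stroma and around follicles, and fibrillins and biglycan also hold or bind growth factors of the TGF-beta family.

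The members differed from each other. Vcan was more than 2-fold higher in the mutant pool, Eln was so on its brighter probe set only, and Lum was 1.70-fold higher. Bgn was higher on all 3 of its probe sets but by less than 1.5-fold. Dcn, Fbln1, Fbln2 and Fbln5 had nearly equal signals in both pools, and Fbn2 was lower in the mutant pool. Probe sets whose brighter signal reached 80.7, the median over both arrays, were treated as measured, and 17 of the 25 met this. Ratios are log2 of mutant over control after adding 22.2 to both signals, which understates the change of dim probe sets. Each gene was represented by its brightest measured probe set. Counts past 1.5-fold or 2-fold use this ratio, also where 1 of the signals lies under the minimum and the fold itself is only a lower bound. On that basis 3 of 9 genes were at least 1.5-fold higher, where 9.32% of the 12308 measured genes were, and 2 of these were at least 2-fold higher, where 3.21% of all were. None was as much as 1.5-fold lower, where 7.90% of all measured genes were 1.5-fold lower and 1.40% were 2-fold lower. Over the 17 measured probe sets, 5 were at least 1.5-fold higher (8.81% of all measured probe sets with 1 gene) and 1 was that much lower (9.87% of all). The median log2 ratio was 0.22 over the 9 genes and -0.02 over all measured genes. With 9 genes chosen as a family, and with earlier results of these data known, these shares describe the list and are not a test.

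**Figure D1:**
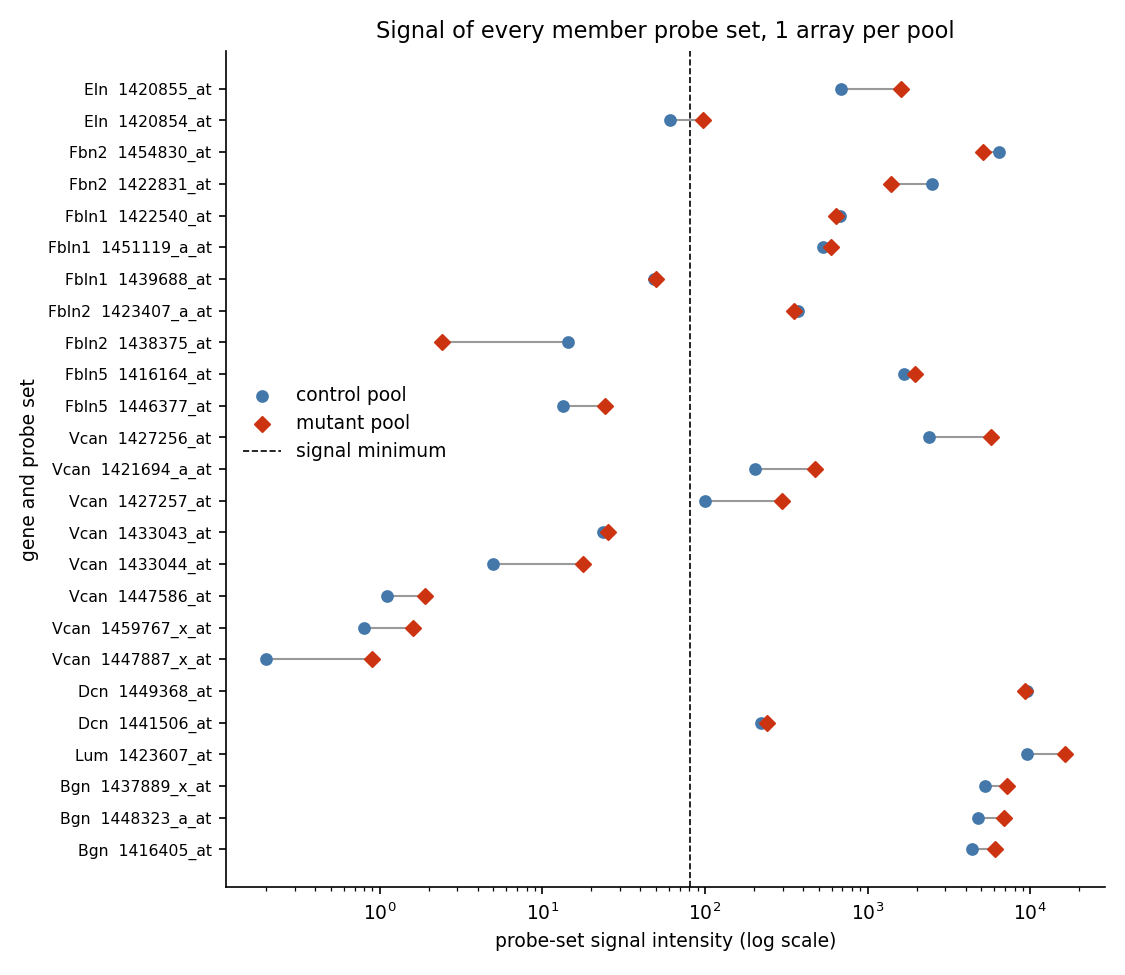
Signal intensity (log axis) of each of the 25 member probe sets in the control pool (circles) and the mutant pool (diamonds), with 1 array per pool, no error bars, and the signal minimum of 80.7 as a dashed line. The 3 measured Vcan probe sets and both Eln probe sets lie to the right in the mutant pool, both Fbn2 probe sets lie to the left, and 8 probe sets stay under the minimum in both pools.

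With 1 array per pool, the only spread that can be measured is between probe sets for one gene. Its SD was 0.385 on the log2 ratio over 13386 measured probe sets of 5118 genes. With these probe sets divided into 4 equal parts by signal, the SD was 0.473 for the lowest signals and 0.319 for the highest, which began at a mean signal of 1537. The arrays differed in ways that bear on every ratio below. The hybridisation controls, spiked transcripts on 18 probe sets, were brighter on the mutant array on 17 of them, with a median log2 ratio of 0.23. The signal ratio of 3' to 5' probe sets, which climbs as RNA or its copy is shortened, was 8.48 in control and 10.5 in mutant ovaries for beta-actin, and 3.28 and 4.98 for Gapdh. The part of these differences in the ratios was not tested. Centring all ratios on the hybridisation controls was tried as an alternative. That centring lowers every log2 ratio by 0.23 and turns the shares of all measured genes past 1.5-fold into 4.96% higher and 18.8% lower. As a check of the labels, the hedgehog target Ptch1 read 5574 in control and 15949 in mutant ovaries, and Hhip 1.1 and 3216. The ovary markers Foxl2, Amhr2, Figla, Sohlh1 and Nobox were all measured in both pools. Each was lower in the mutant by at least 1.5-fold on its brightest probe set, where 7.90% of all measured genes were. Amhr2 itself has 1 altered copy in the mutant. Its other probe sets read 6760.5 and 2801.5, and 252.9 and 206.9, the last being under 1.5-fold.

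**Figure D2:**
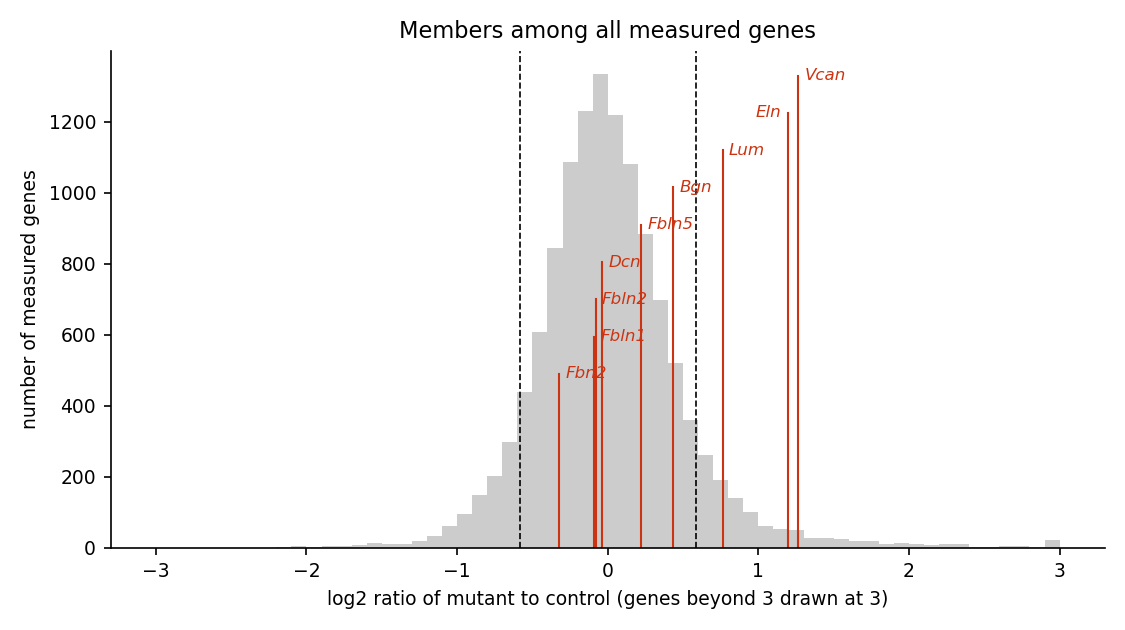
Histogram of the log2 ratio of mutant to control over the 12308 measured genes (grey bars, number of genes per bin of 0.1), with a line for each of the 9 measured members and dashed lines at 1.5-fold. Line height only separates the names. Vcan, Eln and Lum lie beyond the upper dashed line and the other 6 members lie between the dashed lines.

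Promoter windows are shown because Vcan and Bgn, both higher in the mutant pool, can be set beside Fbln1, which was nearly equal. Each runs from 250 bases before to 50 bases after an annotated start, 5′ to 3′ along the gene's own strand, from RefSeq on GRCm38.p6. The reference table held 8 windows for 6 of the 10 members (Fbn1, Fbln1, Fbln2, Fbln5, Vcan and Bgn). Capitals mark 2 motifs on either strand, the GC box GGGCGG and the letters TGGGTGG, the core of the binding sequence of the hedgehog effectors GLI. The core was added after the windows had been seen.
Vcan chr13:89742463-89742762 (minus strand): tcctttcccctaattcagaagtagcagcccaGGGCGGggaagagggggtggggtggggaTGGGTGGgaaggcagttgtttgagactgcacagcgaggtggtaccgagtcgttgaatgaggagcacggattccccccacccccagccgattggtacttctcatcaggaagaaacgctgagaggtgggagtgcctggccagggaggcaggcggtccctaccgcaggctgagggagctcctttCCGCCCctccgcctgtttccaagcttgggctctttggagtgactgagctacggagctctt
Bgn chrX:73483351-73483650 (plus strand): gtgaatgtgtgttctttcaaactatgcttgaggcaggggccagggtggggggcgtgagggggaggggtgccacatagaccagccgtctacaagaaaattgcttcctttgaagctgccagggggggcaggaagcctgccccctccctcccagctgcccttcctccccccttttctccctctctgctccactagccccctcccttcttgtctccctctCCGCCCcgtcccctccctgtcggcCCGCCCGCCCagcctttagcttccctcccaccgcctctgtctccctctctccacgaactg
Fbln1, the first of its 2 windows, chr15:85205699-85205998 (plus strand): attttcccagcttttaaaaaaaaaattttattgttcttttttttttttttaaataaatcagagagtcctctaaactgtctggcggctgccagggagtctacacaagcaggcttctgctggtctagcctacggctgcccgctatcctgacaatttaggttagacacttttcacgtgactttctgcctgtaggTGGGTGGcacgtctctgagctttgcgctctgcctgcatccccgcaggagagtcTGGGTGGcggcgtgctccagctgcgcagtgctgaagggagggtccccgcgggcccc

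The Vcan window held the GLI core once, beginning at position -191 relative to the start, and the GC box at 2 places, beginning at -219 and -10. The Bgn window held no GLI core and 3 GC boxes, of which the last 2 overlap. The Fbln1 window printed held the GLI core at 2 places, beginning at -59 and -6, and no GC box. The second Fbln1 window, chr15:85205758-85206057, overlaps it, holds the core at the same letters (at -118 and -65 from its own start) and has 2 GC boxes, at -11 and 12. The core was also in 1 of the 2 Fbln5 windows, so it was present both in Vcan and in genes whose signals were nearly equal. Of all 32851 promoter windows of this length 9.30% held the core and 35.7% the GC box. The full GLI sequence TGGGTGGTC, which contains the core, was in 0 of the 8 member windows and in 0.253% of all windows, and TATAAA was in 0 of the 8 and in 13.6% of all. A match describes the letters of the window only.

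Elastin is the rubber-like core protein of the elastic fibre. Eln (Entrez gene 13717) had a signal of 687 in control and 1602 in mutant ovaries on probe set 1420855_at, a 2.33-fold difference (log2 ratio 1.20). Of the measured genes 97.7% had a lower log2 ratio. The second Eln probe set, 1420854_at, read 61.1 in control and 97.0 in mutant ovaries, which is at least 1.20-fold because the control value lies under the signal minimum. Both probe sets were brighter in the mutant pool, and their log2 ratios of 1.20 and 0.52 lay 0.68 apart. Averaged over both, the log2 ratio of Eln was 0.86. With the hybridisation-control centring it was 0.965 on the brighter probe set, and both values are under 2-fold.

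Fibrillins form the microfibrils on which elastin is deposited, and Fbn2 is the fibrillin used mainly before and around birth. Fbn2 (14119) read 6406 in control and 5121 in mutant ovaries on its brighter probe set, a log2 ratio of -0.32. Its other probe set read 2493 and 1382, a 1.80-fold lower signal in the mutant pool (log2 ratio -0.84). Both Fbn2 probe sets were thus dimmer in the mutant pool, the opposite direction to Eln, and of them just the dimmer passed 1.5-fold. The mean over both probe sets was -0.58, just inside the 1.5-fold limit. Fbn2 was the member with the lowest ratio, and 21.2% of measured genes had a lower one.

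The fibulins are secreted glycoproteins that link elastin, microfibrils and basement membranes. Fbln5 (23876), which binds elastin and lysyl oxidase-like enzymes, read 1671 in control and 1955 in mutant ovaries (1.17-fold, log2 ratio 0.22). Fbln1 (14114), a matrix protein of fibronectin-rich and elastic tissues, read 679 and 637 on 1 probe set and 533 and 598 on another, so its log2 ratios of -0.09 and 0.16 had opposite signs. Fbln2 (14115), a partner of fibronectin and basement membrane proteins, read 375 in control and 353 in mutant ovaries (log2 ratio -0.08). All these ratios were smaller than the SD of 0.385 between probe sets of a gene. The remaining probe set of each fibulin stayed under the signal minimum, at 48.3 and 50.0 for Fbln1, 14.4 and 2.4 for Fbln2 and 13.4 and 24.3 for Fbln5 in the control and mutant pools.

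Versican is the hyaluronan-binding proteoglycan of loose and expanding matrix. Vcan (13003) had the highest log2 ratio of the 9 genes. Its brightest probe set, 1427256_at, read 2384 in control and 5764 in mutant ovaries (2.42-fold, log2 ratio 1.27). Probe set 1421694_a_at read 203 and 477 (2.34-fold, log2 ratio 1.15), and 1427257_at read 99.7 and 298 (2.99-fold, log2 ratio 1.39). All 3 were thus more than 2-fold brighter in the mutant pool, and their log2 ratios lay within 0.25 of each other. Of the measured genes 97.9% had a log2 ratio under that of the brightest Vcan probe set. The other 5 Vcan probe sets never reached the signal minimum and had values from 0.2 to 25.4.

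Among the small leucine-rich proteoglycans the 3 members did not move alike. Lum (17022), a keratan sulphate proteoglycan of collagen fibrils, read 9590 in control and 16302 in mutant ovaries (1.70-fold, log2 ratio 0.76) on its 1 probe set, so no second probe set checks it. With ratios centred on the hybridisation controls its log2 ratio was 0.535, which is under 1.5-fold. Bgn (12111), a collagen- and growth factor-binding proteoglycan, read 5288, 4757 and 4402.5 in the control pool and 7154, 6904.5 and 6108 in the mutant pool. The 3 Bgn probe sets gave close log2 ratios of 0.43, 0.535 and 0.47, all short of 1.5-fold. Dcn (13179), which caps the thickening of collagen fibrils, read 9566 in control and 9325 in mutant ovaries (log2 ratio -0.04). Its dimmer probe set read 219 and 241.5 (log2 ratio 0.13). Dcn thus differed by 1.03-fold and 1.10-fold on its probe sets, while Lum, its neighbour on the chromosome, was 1.70-fold higher.

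**Figure D3:**
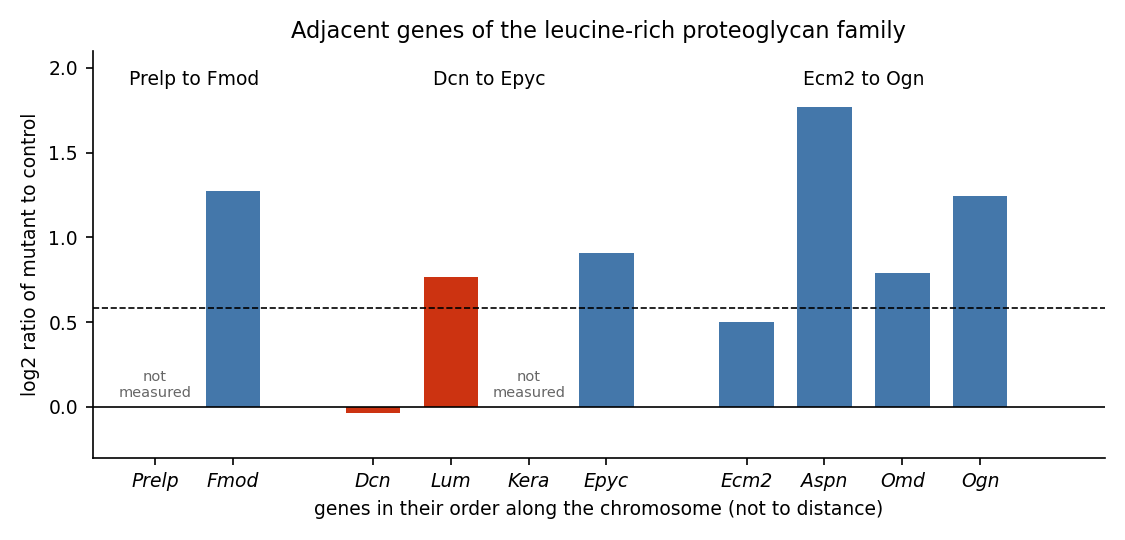
Log2 ratio of mutant to control for genes of the leucine-rich proteoglycan family that are direct neighbours, in chromosome order and not to distance (bars from 0, members Dcn and Lum in red, dashed line at 1.5-fold, 1 array per pool and no error bars). Prelp and Kera were not measured. Dcn lies near 0 beside Lum at 0.76, and the 4 genes from Ecm2 to Ogn all lie above 0, Ecm2 under the dashed line.

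The leucine-rich proteoglycan genes lie in runs of direct neighbours, by the order of protein-coding genes in RefSeq on GRCm38.p6. This grouping was made after the values had been seen. The run Dcn, Lum, Kera, Epyc held 1 gene with near-equal signals (Dcn), 1 that was 1.70-fold higher (Lum) and 1 too dim to measure, the corneal gene Kera. Epyc, a cartilage proteoglycan, read 39.4 in control and 93.5 in mutant ovaries, at least 1.16-fold higher, and its log2 ratio of 0.91 counts it as past 1.5-fold below. The run Ecm2, Aspn, Omd, Ogn had 4 measured genes, and all 4 were brighter in the mutant pool on their brightest probe sets, Ecm2 by less than 1.5-fold. Aspn, asporin, a collagen-binding relative of decorin and biglycan, read 98.5 in control and 389 in mutant ovaries (3.95-fold), and 105 and 382 on its second probe set. Ogn, osteoglycin or mimecan, read 3954 and 9392 (2.38-fold), and 411 and 985 on its second probe set. Omd, osteomodulin, read 154 in control and 282 in mutant ovaries (1.83-fold). Ecm2 read 75.4 and 115.8 (log2 ratio 0.50), so it reached the signal minimum in the mutant pool alone. Its other probe set stayed under the minimum and was dimmer in the mutant pool, at 28.9 and 4.9. With ratios centred on the hybridisation controls Omd had a log2 ratio of 0.56, under 1.5-fold. Omd and Ecm2 were named after their values were seen.

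In the list of other small leucine-rich proteoglycans, 7 of 10 genes were measured, with a median log2 ratio of 0.91. That median is the ratio of Epyc, which like Ecm2 reached the signal minimum in the mutant pool alone. Over all settings the median ranged from 0.63 to 1.26. Of the 7, 5 were at least 1.5-fold higher and 0 that much lower, where 9.32% and 7.90% of all measured genes were. Beside Aspn, Ogn, Omd and Epyc, the fifth was Fmod, fibromodulin, another collagen-fibril regulator, which read 523 in control and 1298 in mutant ovaries on its brightest probe set. That probe set can detect several transcripts, and the other 5 Fmod probe sets had log2 ratios between -0.10 and 0.57. Without probe sets marked x, s or a in their names, 3 of 6 genes of this list were at least 1.5-fold higher (9.25% of all). With the hybridisation-control centring 4 of 7 were (4.96% of all). The ratios of Dcn and Bgn thus lay below most of those measured for their relatives, a difference that has no replicate check.

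The genes that assemble elastic fibres and microfibrils were mostly brighter in the mutant pool on their brightest probe sets, along with Eln. Of 17 listed genes 14 were measured, with a median log2 ratio of 0.51. Of the 14, 7 were at least 1.5-fold higher and 0 that much lower, where 9.32% and 7.90% of all measured genes were. With ratios centred on the hybridisation controls 4 were at least 1.5-fold higher (4.96% of all), 9 of the 14 were above 0 and the median was 0.28. Efemp1, fibulin-3, had the largest difference, at 916 in control and 3039 in mutant ovaries (3.32-fold), in contrast to the fibulins among the members. Lox, the lysyl oxidase that cross-links elastin and collagen, read 2079 and 3870 (1.86-fold), and 185 and 543 on a second probe set (2.94-fold). Ltbp2, a microfibril protein related to the fibrillins, read 603 and 1209 (2.00-fold). Fbln7, a further fibulin, read 63.2 in control and 138 in mutant ovaries, at least 1.71-fold higher. The remaining 3 past 1.5-fold were Mfap4, Ltbp1 and Loxl3, with log2 ratios of 0.77, 0.64 and 0.72. With the hybridisation-control centring these 3 had log2 ratios of 0.54, 0.41 and 0.49, all under 1.5-fold. Mfap2 read 1262 and 1449 on its brightest probe set but 415 and 224 on another, 1.85-fold lower. Mfap5 read 466 and 533, but 451 and 359 on its second probe set. With probe sets averaged 10 of the 14 genes were above 0, in place of 12. Mfap2, Mfap4, Mfap5, Ltbp1 and Loxl3 were named after their values were seen.

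Of the 14 listed genes of the hyaluronan matrix, in which versican is held, 6 were measured. Of the 6, 4 were at least 1.5-fold higher in the mutant pool and 0 that much lower, where 9.32% and 7.90% of all measured genes were. The median log2 ratio was 0.95. With ratios centred on the hybridisation controls 3 were at least 1.5-fold higher (4.96% of all) and the median was 0.72. With no signal minimum, over 13 genes, the median was 0.33. With both signals required to reach the minimum, which drops Tnfaip6, 3 of 5 genes were at least 1.5-fold higher (7.18% of all). The median was then 0.605. Hapln1, the link protein that fastens versican to hyaluronan, read 282 in control and 724 in mutant ovaries (2.57-fold), and its other 3 probe sets had log2 ratios from 0.445 to 1.17. Has2, a hyaluronan synthase, read 88.9 and 146.8 (1.65-fold), with log2 ratios of 0.61 and, under the hybridisation-control centring, 0.38. With a pseudocount of 80.7 in place of 22.2 its log2 ratio was 0.42, so its 1.5-fold call was lost under both settings. Tnfaip6, which modifies hyaluronan during cumulus expansion, read 55.3 in control and 174 in mutant ovaries, at least 2.15-fold higher. Bcan, brevican, a relative of versican, read 243 and 888 on a probe set marked x, but 30.3 and 28.9 on its other one. Without probe sets marked x, s or a Bcan was not measured. Then 3 of 5 genes of this list were at least 1.5-fold higher (9.25% of all), with a median of 0.605. The remaining 2 measured genes did not pass. Hyal2, a hyaluronidase, read 283 and 288, and Cd44, the hyaluronan receptor, read 1019 in control and 1287 in mutant ovaries on 1 probe set but 773 and 569 on another. These 2 were named after their values were seen.

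Of the 7 listed proteases known to cut versican, all were measured, with a median log2 ratio of 0.70. In the mutant pool 5 were at least 1.5-fold higher and 0 that much lower, where 9.32% and 7.90% of all measured genes were. With ratios centred on the hybridisation controls 3 were at least 1.5-fold higher (4.96% of all), Adamts20 and Adamts1 having log2 ratios of 0.47 and 0.37. Adamts5 read 367 in control and 1116 in mutant ovaries (3.04-fold), and its other measured probe sets were 2.46-fold and 2.71-fold higher. Adamts4 read 168 and 367 (2.19-fold), and Adamts20 642 and 1054 (1.64-fold). Adamts15 read 78.1 in control and 222 in mutant ovaries, at least 2.75-fold higher. Adamts1 had a log2 ratio of 0.60. The other two did not pass. Adamts9, the brightest of the list, read 3036 in control and 3184 in mutant ovaries, and its other measured probe sets read 1690 and 1658, and 92.7 and 113. Adamts8 read 69.4 and 96.0, at least 1.19-fold higher. Adamts1, Adamts8 and Adamts9 were named after their values were seen.

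The enzymes that build glycosaminoglycan chains on proteoglycans showed no common direction. Of 20 listed genes 15 were measured, 1 at least 1.5-fold higher (9.32% of all measured genes) and 1 that much lower (7.90% of all). The median log2 ratio was 0.005, and -0.22 with the hybridisation-control centring. Csgalnact2, which starts chondroitin chains, read 977 in control and 1819 in mutant ovaries (1.86-fold). Chsy1, a chondroitin synthase, and Dse, the dermatan sulphate epimerase, had log2 ratios of 0.38 and 0.54. B3gat3, which completes the linker between protein and chain, read 347 in control and 122 in mutant ovaries on 1 probe set, but 111 and 118 on its other one.

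Among matrix and growth factor partners 8 of 10 listed genes were measured, with a median log2 ratio of 0.27. Of the 8, 1 was at least 1.5-fold higher (9.32% of all measured genes) and 1 that much lower (7.90% of all). Fn1, fibronectin, read 1857 in control and 2799 in mutant ovaries (1.51-fold) but 158 and 137 on a second probe set, and with ratios centred on the hybridisation controls it was under 1.5-fold. Tnc, tenascin-C, an anti-adhesive matrix protein, was lower by 1.59-fold, at 1140 in control and 718 in mutant ovaries. Nid2, a basement membrane linker, had a log2 ratio of 0.575. Tgfb2, a growth factor stored on microfibrils, had log2 ratios from -0.72 to 0.74 on 4 measured probe sets. Over all 6 lists 57 of 78 genes were measured. Of the 57, 23 were at least 1.5-fold higher and 2 that much lower, where 9.32% and 7.90% of all measured genes were. These lists were drawn up with results of these arrays known, so their direction is not independent evidence.

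**Figure D4:**
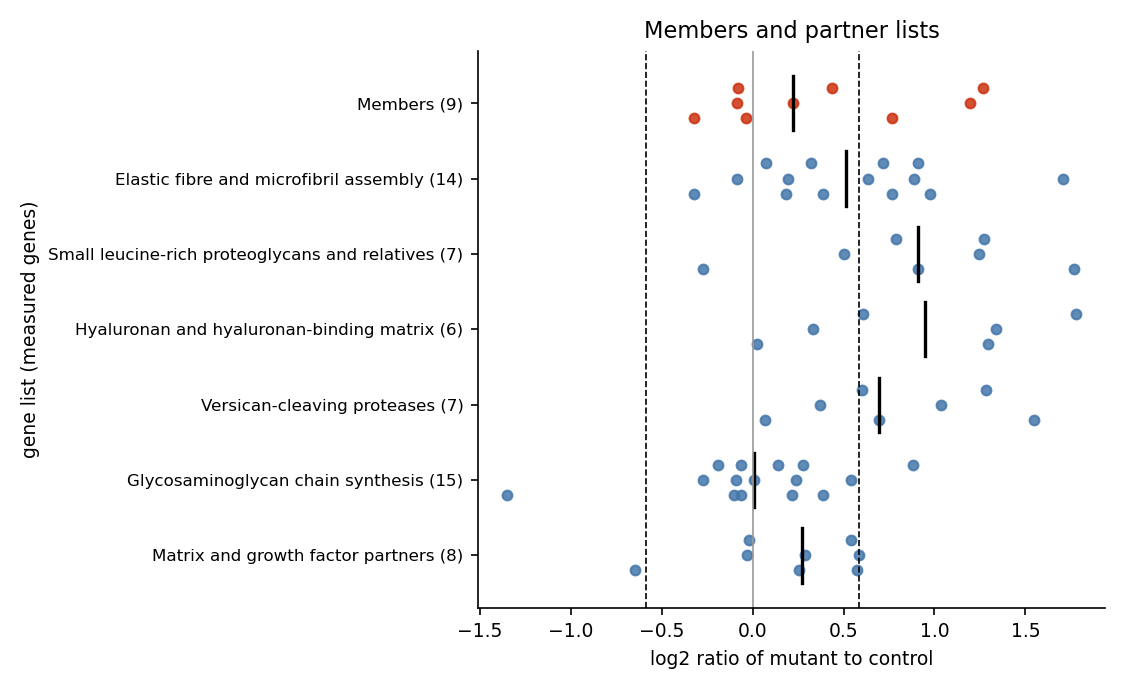
Log2 ratio of mutant to control for the 9 members (red) and for each measured gene of the 6 partner lists (blue), 1 point per gene, with a vertical bar at each list's median and dashed lines at 1.5-fold. Points are staggered only for legibility. Under the main setting the proteoglycan relatives, hyaluronan genes and versican-cleaving proteases have medians of 0.91, 0.95 and 0.70. The chain-synthesis enzymes have a median of 0.005.

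Markers of the cells that make or border this matrix differed between the pools as well. Of the interstitial and fibroblast markers all 6 were measured, and 4 were at least 1.5-fold higher, with a summed signal of 63574 in control and 91309 in mutant ovaries. Those 4 include Pdgfra, which read 7298.5 and 16038. Most of the sum came from Col3a1, at 27925 and 36196.5, and Col1a2, at 22367 and 27721.5, both less than 1.5-fold higher. Of the smooth muscle markers 5 of 6 were measured, with summed signals of 8677 and 13971, of which Acta2 gave 7248 and 12203. Tagln read 1019 and 1042. By their log2 ratios 2 smooth muscle markers were at least 1.5-fold higher and 1 lower, namely Des at 91.4 and 12.1, a fold of at least 1.13 because the mutant value lies under the minimum. The endothelial sum was 2190 in control and 2845 in mutant ovaries, the pericyte sum 4444 and 6319, and the leukocyte sum 4325 and 7036, with 2 markers of each at least 1.5-fold higher by log2 ratio out of 6, 4 and 5 measured. For 1 of the endothelial 2, Pecam1 at 68.8 and 116.7, the fold is only at least 1.45. Of the pericyte sum Rgs5 gave 1902 and 1865. Csf1r gave 3274 and 5611 of the leukocyte sum, and Cd68 and Adgre1 had log2 ratios of 0.06 and -0.004. The 5 ovary markers summed to 28142 in control and 13798.5 in mutant ovaries, of which Amhr2, altered in the mutant, gave 8591 and 3485.5. The 6 surface epithelium markers summed to 9320 and 6370, with 2 of them at least 1.5-fold lower. Wt1 gave 4845 and 3528 of that sum, a log2 ratio of -0.455 and so under 1.5-fold. Msln and Upk3b had log2 ratios of 0.26 and -0.08. The 4 steroidogenic markers, all at least 2-fold higher, summed to 6172 and 39942, of which Hsd3b1 gave 5940 and 23765. Of the oviduct and Mullerian duct markers 4 of 5 were measured, with sums of 1853 and 1849. Hoxa9 among them was 2.22-fold higher. Emx2, which gave most of the sums at 1328 and 963.5, was 1.38-fold lower, and Ovgp1, at 83.7 and 33.3, at least 1.04-fold lower. None of the 4 adipocyte or 5 chondrocyte and bone markers was measured. The part of these cell types in the ratios of Vcan, Eln and Lum was not tested, and in a whole-ovary pool more cells of a type and more RNA per cell cannot be told apart.

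**Figure D5:**
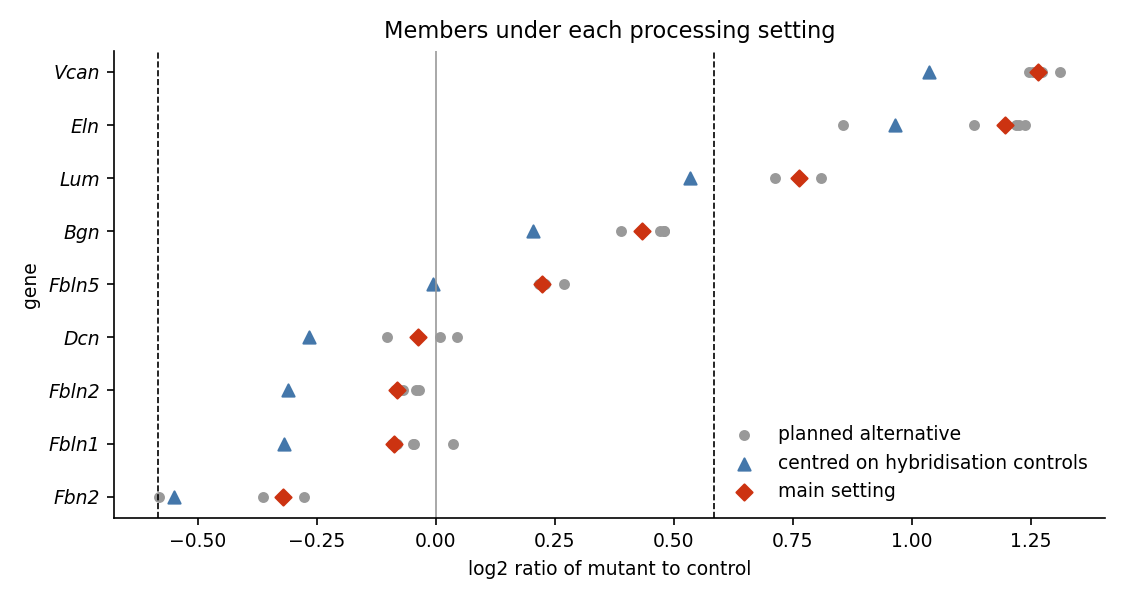
Log2 ratio of mutant to control for each member under the main setting (diamonds), the 10 other processing settings (grey circles, overlapping where equal) and centring on the hybridisation controls (triangles), with dashed lines at 1.5-fold. Vcan and Eln stay above the upper dashed line under all settings shown, Lum drops below it under the hybridisation-control centring alone, and Fbn2 comes to -0.58 when its probe sets are averaged.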

How the data were processed

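Total RNA from the ovaries of single mice was pooled in equal amounts from 8 animals per genotype, per the labels' protocols, and each pool was hybridised to 1 array. The authors deposited 1 linear signal intensity per probe set and array. GCOS is the tool listed in the submitters' processing notes. Both arrays had a mean of 500.003 without the lowest and highest 2% of values, so a common scale had been set, by a step not given in the sources used here. Detection calls were not used here.

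Intensities were used as deposited. Symbols came from the platform annotation, in which 34945 of 45101 probe sets had 1 gene symbol and 932 had several. Where 1 signal lay under the minimum of 80.7, the fold is a lower bound, the brighter signal over 80.7. Work was done in Python 3.11.15 with pandas 2.3.3 and tested on simulated data. The named genes are all members and, from each partner list, up to 4 measured genes with the largest absolute log2 ratio. Members, lists and rules were chosen with earlier results of these data known. Alternatives varied the pseudocount, signal minimum, scaling and choice of probe set. Precision is limited by having 1 array per group.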

Additional observations from a re-analysis of the deposited data

How the results depend on the processing

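Over 10 alternative settings fixed with the design and 1 added after seeing the data (centring on the hybridisation controls), all 130 values of the members moved by less than the probe-set SD of 0.385, or for counts by no more than 1.5 times. This limit was partly met by construction. Changes of the signal minimum leave the ratios of bright genes as they were, and the centring shifts each ratio by 0.23. The log2 ratio of Vcan ranged from 1.04 to 1.31, that of Eln from 0.86 to 1.24, that of Lum from 0.535 to 0.81, that of Bgn from 0.205 to 0.48 and that of Fbn2 from -0.58 to -0.28. Between 2 and 3 members were at least 1.5-fold higher and 0 that much lower. Of all measured genes, 4.96% to 11.0% were higher and 4.96% to 18.8% lower across the settings. Eln was under 2-fold with its probe sets averaged (0.86) and with the hybridisation-control centring (0.965). The members' median ranged from -0.01, with the hybridisation-control centring, to 0.35. Fbln2 could not be measured at a signal minimum of 442.4, the 75th percentile, or once probe sets marked x, s or a were dropped. Of the partner genes, Fmod was under 1.5-fold when its probe sets were averaged (0.48) or those marked x, s or a dropped (0.57). Epyc was so with a pseudocount of 80.7 (0.54) or values under the minimum raised to it (0.17). That pseudocount also left Has2 (0.42), Adamts1 (0.58) and Fn1 (0.57) under 1.5-fold, and averaging left Fn1 at 0.20. The hybridisation-control centring left Has2, Omd, Adamts1, Adamts20, Fn1, Mfap4, Ltbp1 and Loxl3 under it. Counts of partner genes at least 1.5-fold higher changed by over 1.5 times in these cases. At the higher signal minimum, which leaves fewer genes, 2 of 2 proteoglycan relatives, 2 of 3 hyaluronan genes and 3 of 4 versican-cleaving proteases passed. In the main setting 5 of 7, 4 of 6 and 5 of 7 did. Of all genes measured at the higher minimum 7.07% passed. Without probe sets marked x, s or a, 3 of 6 proteoglycan relatives passed (9.25% of all measured genes). With the hybridisation-control centring 4 of 14 assembly genes, 3 of 7 versican-cleaving proteases and 0 of 8 matrix partners passed (4.96% of all). In the main setting 7, 5 and 1 did. The matrix partners numbered from 0 to 3 over all settings, and the chain-synthesis enzymes from 1 to 2 higher and 0 to 2 lower. Tnfaip6, Epyc, Fbln7 and Adamts15 reached the signal minimum in the mutant pool alone and were counted as higher. With both signals required to reach it, 6 of 13 assembly genes and 4 of 5 proteoglycan relatives passed, where 7.18% of all measured genes did. Under that setting 3 of 5 hyaluronan genes and 4 of 5 versican-cleaving proteases passed. No paired analysis was possible because each group has 1 sample. No replicate could be left out.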

Other observations

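Some matrix genes differed between the pools without reaching the signal minimum in either, so no fold is given and no direction is read from them. Acan, aggrecan, the cartilage relative of versican, read 1.1 in control and 65.5 in mutant ovaries. Comp, a cartilage and tendon matrix protein, read 17.3 and 58.4, while Col2a1, the main cartilage collagen, read 26.6 and 1.5. Ncan, neurocan, a further relative of versican, read 24.6 and 2.6, 21.0 and 2.2, and 1.1 and 19.7 on its 3 probe sets. The second probe set of Has2 read 7.8 and 54.6. These genes were named after their values were seen.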
